A study of Rattus norvegicus with 24 samples.

Results

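Fos, Fosb, Jun, Junb, Egr1, Egr2, Egr3, Atf3, Ier2 and Nr4a1, which encode nuclear proteins of the immediate early response, were examined in lung tissue of a rat lung cancer model. The 10 genes were chosen by name, and all 10 were found among the 30667 gene rows of the deposited expression table. Each of the 24 samples is rat lung, carries the protocol label smoky coal, the agent said to induce the tumours, and was measured by mRNA sequencing. The sample titles combine a letter, A, B, C or G, with a number from 1 to 6, so that each letter has 6 samples and each number has 4. What a letter or a number stands for is not given in the sources used here, nor are the strain, sex, age, dose or time of exposure, and no sample is labelled as a control. The labels do not say that the samples came from separate animals, so the p-values measure only the spread between these samples, which may be technical.

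Values are normalized counts as deposited, and the totals per sample differed by at most 1.07-fold (61717516 to 66007148), so the read depth behind each value is unknown. The submitters' processing notes name the mouse genome build GRCm38 for these rat samples, and 37.6% of the row names (11528 of 30667) have the form of mouse gene models. A gene's value could therefore also depend on how well its rat reads match the mouse sequence. Each test of a difference compares samples within 1 gene. Summed levels of gene lists, given below, add values of genes whose match to the mouse sequence may differ. Lung markers were detected in every sample: the surfactant gene Sftpc was at 603887 or more, the alveolar type 1 gene Ager at 112843 or more and the club cell gene Scgb1a1 at 303417 or more. In bulk tissue, fewer cells of a type and less RNA per cell cannot be told apart.

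Immediate early genes are transcribed within minutes of a stimulus such as a growth factor, stretch, injury or stress, from factors that already sit in the cell and need no new protein. MAP kinase signals to serum response factor with its ternary complex partners, and to CREB family factors, are the best known triggers, and many of the messages decay quickly. FOS and JUN family proteins pair through leucine zippers into the AP-1 transcription factor, to which ATF3 also binds. EGR proteins are zinc finger factors, NR4A1 is an orphan nuclear receptor, and IER2 is a nuclear protein that acts as a transcriptional regulator.

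Promoter windows from RefSeq on the rat build GRCr8, which hold 250 bases before each gene's start, were found for 6 of the 10 genes (Fosb, Junb, Egr1, Egr2, Ier2 and Nr4a1). These windows were searched on both strands for the cyclic AMP response element TGACGTCA, for its short form TGACG (which the longer motif contains on each strand), for the AP-1 site TGANTCA and for the CArG box bound by serum response factor. Windows of 3 genes that were higher in the samples numbered 6 (below) are shown as examples of cyclic AMP response element letters. Egr1 was also higher there and holds such letters, and is described without its sequence. Sequences run 5′ to 3′ on the gene's strand in lower case, and capitals mark TGACG or its complement CGTCA. They lie at chr7:134259888-134260137 (plus strand) for Nr4a1, chr19:40399123-40399372 (plus) for Ier2 and chr19:40080876-40081125 (plus) for Junb.
Nr4a1: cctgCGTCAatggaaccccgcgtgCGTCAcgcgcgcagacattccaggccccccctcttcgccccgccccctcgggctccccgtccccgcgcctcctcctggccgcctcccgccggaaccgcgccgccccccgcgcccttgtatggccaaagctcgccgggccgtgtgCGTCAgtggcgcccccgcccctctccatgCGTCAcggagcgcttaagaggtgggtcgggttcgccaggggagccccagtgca
Ier2: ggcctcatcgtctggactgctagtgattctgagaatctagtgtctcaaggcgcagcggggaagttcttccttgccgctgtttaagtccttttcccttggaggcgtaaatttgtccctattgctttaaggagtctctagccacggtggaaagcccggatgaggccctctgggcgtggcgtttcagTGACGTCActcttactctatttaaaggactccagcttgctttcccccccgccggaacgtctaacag
Junb: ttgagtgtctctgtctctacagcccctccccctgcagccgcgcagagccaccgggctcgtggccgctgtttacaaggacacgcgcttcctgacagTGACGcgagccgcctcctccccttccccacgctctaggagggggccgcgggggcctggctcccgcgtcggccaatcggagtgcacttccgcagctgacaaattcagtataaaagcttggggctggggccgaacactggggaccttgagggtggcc
A stretch of 26 bases from the Egr2 window is shown because it holds both kinds of site and because Egr2 behaved unlike the other genes. It lies at chr20:21054501-21054526 on the minus strand, and the capitals mark the CArG box and then CGTCA.
Egr2: gtCCATATATGGgcagcgaCGTCAcg
The Nr4a1 window held 4 copies of TGACG or its complement, Egr1 2, Junb 1 and Egr2 1. In Ier2 the 2 copies were both strands of a single complete TGACGTCA, 66 to 59 bases before the start, and no other of the 6 windows held the complete motif. Fosb held none of the 4 motifs in its window. The CArG box occurred in Egr1 at 105 to 96 and 83 to 74 bases before the start and in Egr2 at 83 to 74 bases before it. TGANTCA was found in 0 of the 6 windows. Over all 33469 windows of this length in the table, 18.2% held TGACG, 1.59% TGACGTCA, 1.50% a CArG box and 6.34% TGANTCA. The Nr4a1 and Egr2 windows lie inside the annotated spans of their genes, upstream of the start used here. A match describes letters only, and no match says nothing of whether a factor binds.

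No difference between the letters passed the test. With limma on log2(value + 1) over all 30667 genes, 0 of 10 passed a Benjamini-Hochberg adjusted p of 0.05 in the F test over the 4 letters, where 0.00652% of all genes (2) did. None of the 10 had an unadjusted p under 0.05 either, and 3.91% of all genes had. The lowest unadjusted p was that of Egr3 (0.138), and every adjusted p was 1.
In the 6 pairwise contrasts of letters, the adjusted p passed in 0 of 60 gene contrasts, against 0.00652% of all genes in G against A and in G against C, 0.00326% in G against B and 0% in the contrasts among A, B and C. With the number as a block, again 0 of 10 genes passed over the letters and in G against A, where 0.0391% and 1.27% of all genes passed.
Egr3, a zinc finger factor that acts in T cells, muscle spindles and vessel wall, had the only unadjusted p under 0.05 in the fit without the block, in G against A. In the blocked fit Egr1 in G against A was also under 0.05 (unadjusted limma p 0.0239). The Egr3 means were 180 ± 82.5 in G, 425 ± 278 in A, 339 ± 240 in B and 363 ± 319 in C (SD, n = 6 each). Without the block, the Egr3 log2 fold change of G against A was -1.08 (SE 0.46), with a limma adjusted p of 0.551.
Egr1, which is induced in many lung cell types by growth factors and stretch, had means of 3080 ± 1932 in G and 6698 ± 4423 in A (SD, n = 6 each). That difference had a log2 fold change of -1.03 (SE 0.54) and a limma adjusted p of 0.643, and the 2 letters' ranges overlapped.
For Fos the letter means lay between 2043 ± 1502 (G) and 3017 ± 2107 (A), and for Jun between 26005 ± 8176 (A) and 32749 ± 15607 (G) (SD, n = 6 each). Within each letter the SD was thus at least as large as the gap between any 2 letter means for Fos, and the same kind of spread held for Fosb, whose means ran from 674 ± 522 (G) to 869 ± 692 (A).

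The numbers gave more differences. In the F test over the 6 numbers, 6 of the 10 genes passed (Fos, Fosb, Junb, Egr2, Ier2 and Nr4a1), against a background of 30.3% of all genes (9297). The limma adjusted p was 0.00198 for Junb, 0.00207 for Nr4a1, 0.0105 for Fosb, 0.0165 for Egr2, 0.0242 for Fos and 0.0429 for Ier2. It was 0.0607 for Jun, 0.0636 for Egr1, 0.0863 for Atf3 and 0.154 for Egr3. With the letter as a block 7 of 10 passed, against 31.5% of all genes, since Egr1 was added (0.0422). Junb, Nr4a1, Fosb and Egr2 passed in each of 24 fits that left out 1 sample. Fos lost the call without A6, B6 or G6 (adjusted p up to 0.0698), and Ier2 passed in 11 of the 24 fits (up to 0.0926).

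Most of these differences lay in the samples numbered 6. Each number was set against the mean of the other 5 numbers in the same limma fit, and in number 6 the test was passed by 6 of the 10 genes, all higher, against 3.71% of all genes called higher and 3.53% called lower. These were Fos, Fosb, Junb, Egr1, Ier2 and Nr4a1. The median log2 fold change of the 10 genes was 0.68, where that over all genes tested was 0.001.

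**Figure D1:**
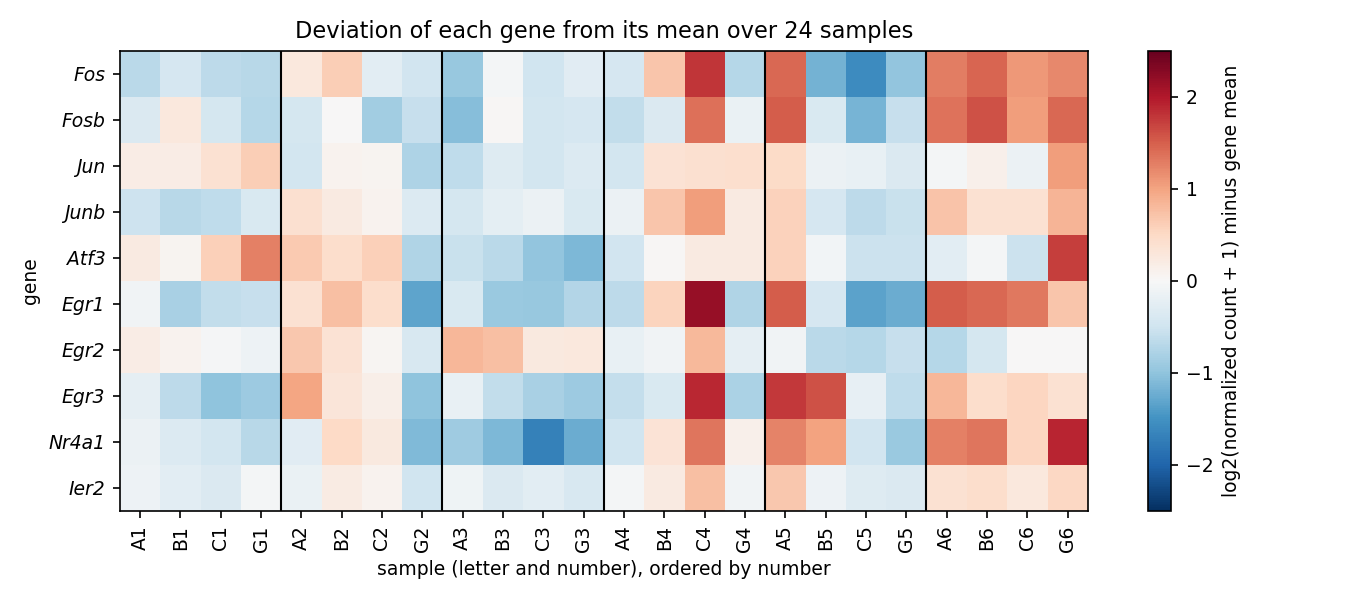
Heat map of the 10 genes (rows) in the 24 samples (columns, ordered by number and then letter), coloured by how far log2(value + 1) lies from the mean of its row. The 4 columns numbered 6 and the columns C4 and A5 are high for Fos, Fosb, Egr1, Ier2 and Nr4a1, while the Egr2 row is highest in A3, C4 and B3.

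The FOS family members were among those with the larger changes. Fos, the classic partner of JUN in AP-1, was at 5337, 6026, 4647 and 5070 normalized counts in A6, B6, C6 and G6. Among the other 20 samples it exceeded 4647 in 2, C4 (7621) and A5 (5951), and the remaining 18 lay between 737.4 and 3577. The mean in number 6 was 5270 ± 579 (SD, n = 4), and the log2 fold change against the other numbers was 1.51 (SE 0.38, limma adjusted p 0.0166).
The call for Fos was lost without A6 or without B6, with an adjusted p of up to 0.0843.
Fosb, a close relative of FOS with slower decay of its truncated protein form, was at 1663, 1936, 1336 and 1732 in A6, B6, C6 and G6. C4 (1665) and A5 (1846) were again as high, and the other 18 samples lay between 287.2 and 768.5, with no value in the gap up to 1336. Its log2 fold change in number 6 was 1.63 (SE 0.33, limma adjusted p 0.00373), a 3.09-fold difference, and it passed in each fit that left out 1 sample (adjusted p at most 0.0299).

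Junb, a JUN family protein that pairs with FOS proteins and can hold back JUN, was at 19736, 15819, 15782 and 21790 in A6, B6, C6 and G6. The other samples ranged from 7508 to 24870, and the highest of them were C4 (24870), B4 (19534), A5 (17945) and A2 (16062). The groups thus overlapped, and the log2 fold change was 0.70 (SE 0.18, limma adjusted p 0.0183). Without A6 or without G6 the adjusted p rose to as much as 0.0842.
In number 1 Junb was the single gene of the 10 called. It was at 8442, 7508, 7761 and 9364 in A1, B1, C1 and G1, a log2 fold change of -0.67 (SE 0.18, limma adjusted p 0.0144), where 5.74% of all genes were called lower. That call was lost without B1 or without C1 (adjusted p up to 0.0697).

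Egr1 was at 12220, 11632, 10635 and 6909 in A6, B6, C6 and G6. C4 had the highest value of all (19490) and A5 had 12325, B2 reached 7252 and B4 6280, and the rest lay between 1706 and 5856. The mean in number 6 was 10349 ± 2385 (SD, n = 4), and the log2 fold change was 1.48 (SE 0.43, limma adjusted p 0.0384). It was lost when A6, B1, B6, C1 or C6 was left out, with an adjusted p of up to 0.144.
Nr4a1, which is induced in macrophages, lymphocytes and vascular cells, was at 13551, 14323, 8151 and 21244 in A6, B6, C6 and G6. C4 (14330), A5 (13376) and B5 (11296) also lay above C6, and the rest ranged from 1745 to 7906. The log2 fold change was 1.52 (SE 0.33, limma adjusted p 0.00643), and the call held in all 24 fits that left out 1 sample (adjusted p at most 0.0385).
Nr4a1 was also lower in number 3, at 3041, 2601, 1745 and 2395 in A3, B3, C3 and G3. The groups overlapped, since G2 (2624) and G5 (2967) lay below A3. In number 3 the log2 fold change was -1.48 (SE 0.33, limma adjusted p 0.00947), against 1.92% of all genes called lower. Without C3 the adjusted p was 0.0785.
Ier2 was at 15143, 15894, 14063 and 16691 in A6, B6, C6 and G6. C4 (19819) and A5 (18631) were higher than all of these, and the other 18 samples lay between 8331 and 13753, below every sample numbered 6. Its change was the smallest of the 6 called, with a log2 fold change of 0.48 (SE 0.15, limma adjusted p 0.0477). That call held when A2, A3, A5, B2, C2, C4, G1 or G2 was left out (8 of 24 fits), and the adjusted p reached 0.159 in the others, while the log2 fold change stayed between 0.44 and 0.52.

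**Figure D2:**
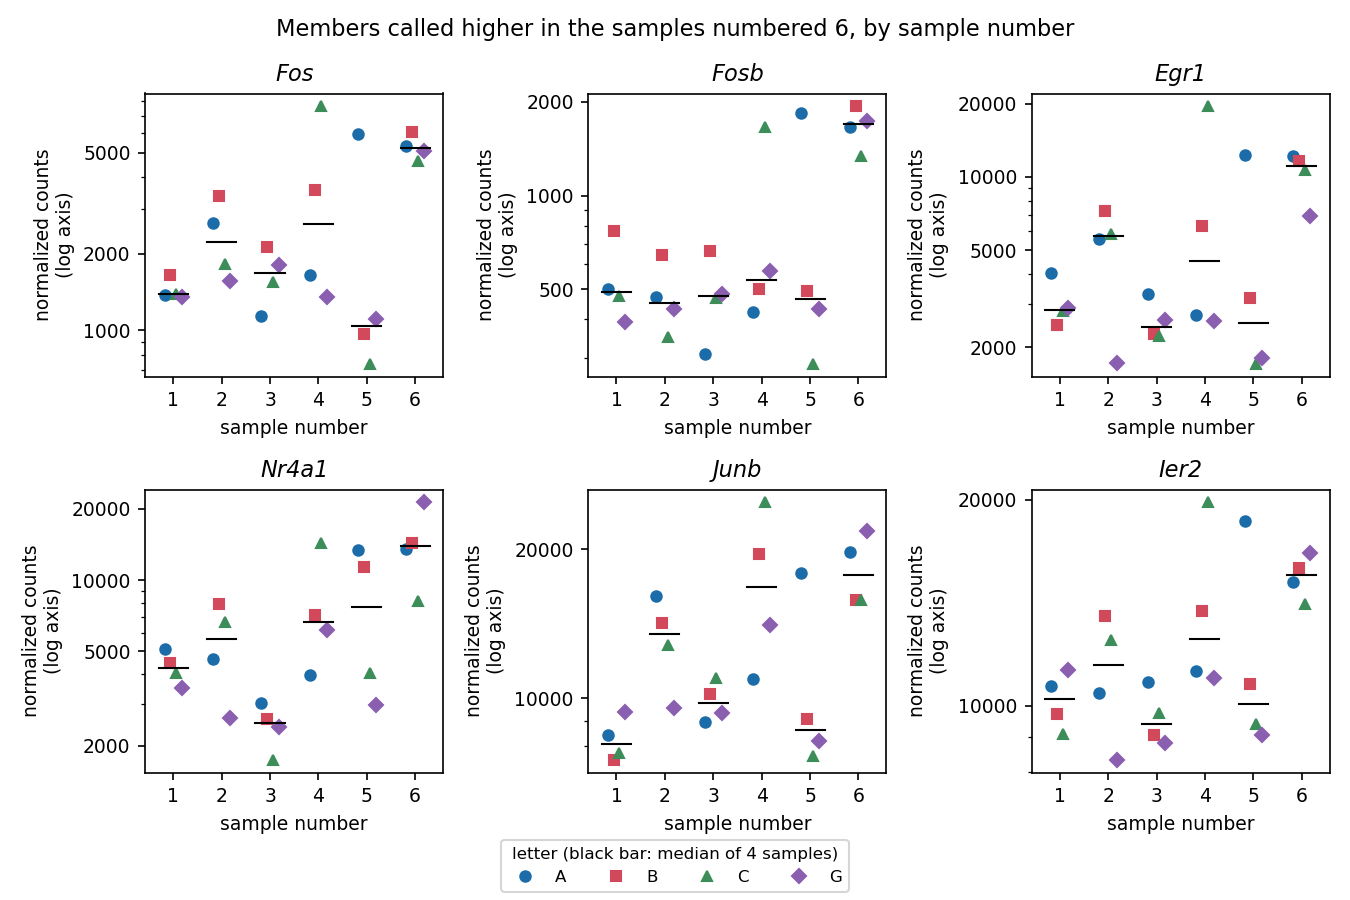
Normalized counts (log axis) of Fos, Fosb, Egr1, Nr4a1, Junb and Ier2 by sample number, 1 point per sample coloured by letter, with a black bar at the median of the 4 samples. Fosb values in number 6 run from 1336 to 1936, and C4 (1665) and A5 (1846) are the only other samples in that range.

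The other 4 genes did not pass in number 6. Jun, the central AP-1 subunit, was at 26878, 30266, 25260 and 57026 there, with a log2 fold change of 0.29 (SE 0.18, limma adjusted p 0.398). G6 was the highest of all 24 samples, and A6, B6 and C6 lay within the range of the other 20 samples, 16318 to 42611. The next highest values were those of G1 (42611) and A5 (38938).
Atf3, a stress-induced factor of the ATF and CREB family that can repress its targets, was at 1448, 1690, 1210 and 5772 in A6, B6, C6 and G6. Its log2 fold change was 0.26 (SE 0.30, limma adjusted p 0.688), and G6 alone stood above the rest, followed by G1 (4160). In number 3 Atf3 was at 1191, 1093, 886.1 and 797.1 in A3, B3, C3 and G3, below every sample of the other numbers except G2 (1034), with a limma adjusted p of 0.0548.
Egr3 was at 474.6, 358.9, 386.7 and 346.2 in A6, B6, C6 and G6. C4 (985.7), A5 (910.5), B5 (801.1) and A2 (526.1) were all above these 4. The log2 fold change in number 6 was 0.66 (SE 0.40, limma adjusted p 0.371).

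Egr2, known for its part in Schwann cell myelination and in restraint of activated lymphocytes, had another pattern over the numbers. It was at 751.8, 711, 501.1 and 510.4 in A3, B3, C3 and G3, a log2 fold change of 0.63 (SE 0.18, limma adjusted p 0.0449), where 2.50% of all genes were called higher. In number 6 it was at 257.9, 311.8, 426.1 and 423.7 (log2 fold change -0.34, SE 0.18, limma adjusted p 0.291), and in number 5 at 397.6, 263.4, 256.4 and 284.2 (limma adjusted p 0.0786). The groups overlapped, since A2 (672.9), B2 (541) and C4 (739.7) reached the values of number 3. The call in number 3 held when A2, A5, B2, C4, C6, G2 or G6 was left out (7 of 24 fits), and the adjusted p reached 0.187 in the others. It was 0.054 with robust variance moderation and 0.0785 without A4 and B4.

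**Figure D3:**
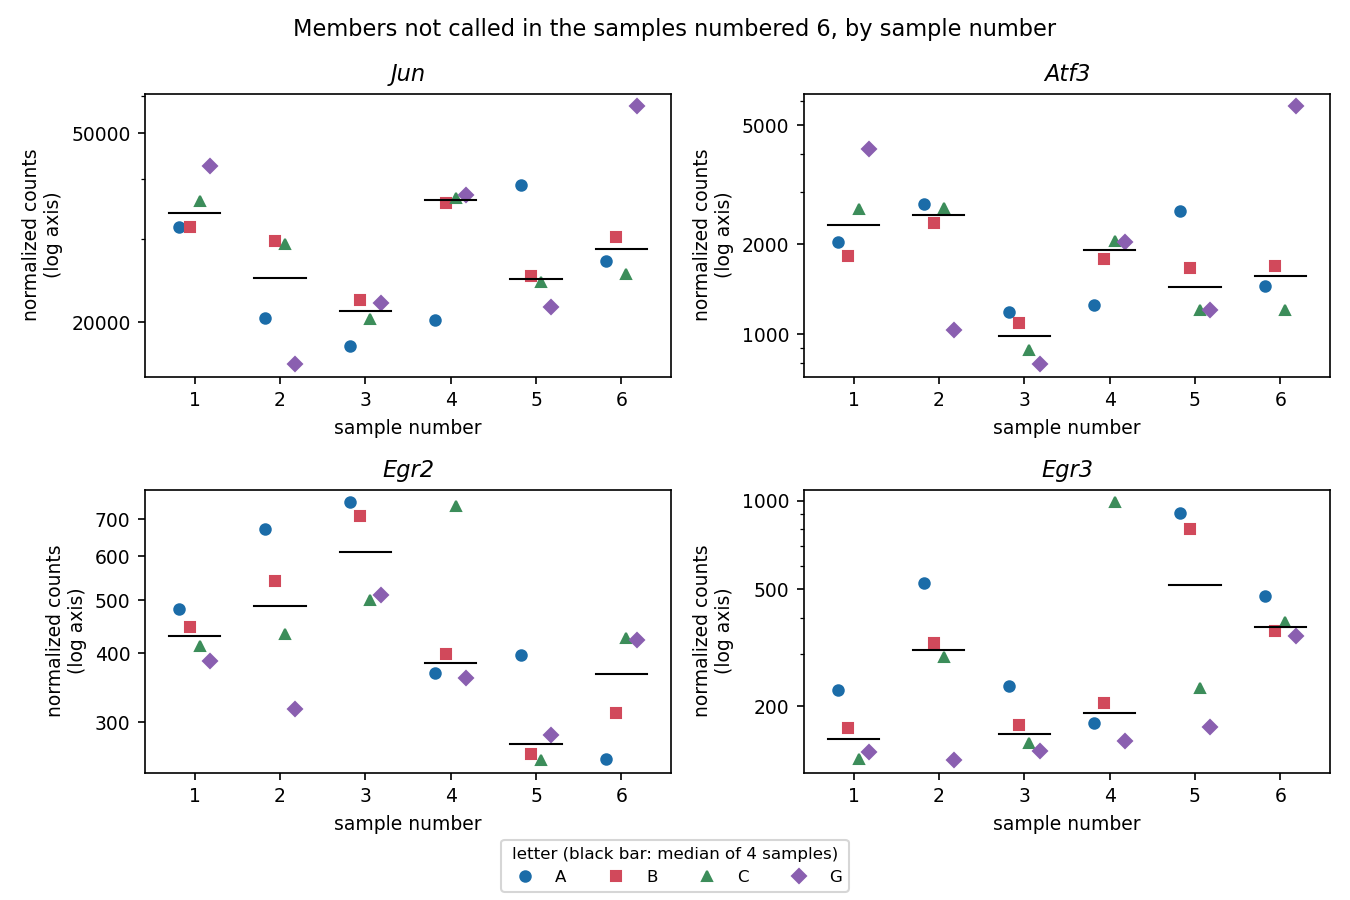
Normalized counts (log axis) of Jun, Atf3, Egr2 and Egr3 by sample number, 1 point per sample coloured by letter, with a black bar at the median of the 4 samples. G6 is the highest sample for Jun (57026) and Atf3 (5772), and the Egr2 values of number 3 (501.1 to 751.8) lie above all 8 values of numbers 5 and 6.

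For numbers 2, 4 and 5, limma called 0 of the 10 genes, against 20.8%, 4.20% and 1.61% of all genes in either direction. At an unadjusted p under 0.05 there were 0 in number 2, 1 in number 4 (Junb, log2 fold change 0.54, adjusted p 0.0861) and 1 in number 5 (Egr2). Number 5 split by sample: Fos was at 5951 in A5 and at 969.8, 737.4 and 1104 in B5, C5 and G5. Its log2 fold change in number 5 was -0.69 (limma adjusted p 0.415) with all samples and -1.37 (adjusted p 0.0317) without A5. Number 4 split likewise, with Egr1 at 19490 in C4 and at 2723, 6280 and 2564 in A4, B4 and G4.

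The high samples were largely the same ones from gene to gene. The 6 highest samples were C4, A5, A6, B6, C6 and G6 for Fos, for Fosb and for Ier2. Of these 6 samples, 5 were among the 6 highest for Egr1 and 5 for Nr4a1, where B2 and B5 respectively took a place. The count was 4 for Junb and for Egr3, 3 for Jun, 2 for Atf3 and 1 for Egr2. B5 was high for Nr4a1 (11296) and Egr3 (801.1), although its Fos was at 969.8 and its Egr1 at 3196.

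Correlations across the 24 samples were computed on log2(value + 1) for all 45 pairs of the 10 genes, with permutation tests adjusted over the 45. Fosb fell into 2 separate ranges, so pooled values are given for the 36 pairs without it. Of these, 20 passed, all positive. The median Pearson r over the 36 was 0.573 (range -0.200 to 0.929), and 0.482 (range -0.301 to 0.899) when the 2 samples farthest from the median of the first gene were left out. The highest was Egr1 with Ier2, at r 0.929 and Spearman's rho 0.886 (permutation p adjusted 4.09e-05), and at r 0.899 without A5 and C4. Fos with Egr1 gave r 0.904 (rho 0.766) and Fos with Junb r 0.888 (rho 0.822). Without B6 and C4, the 2 samples farthest out for Fos, these r were 0.868 and 0.872.
Jun with Atf3 gave r 0.812 (rho 0.749), and 0.727 without G2 and G6, while Jun with Fos gave r 0.409 (permutation p adjusted 0.0715). The difference between these 2 correlations was not tested.
Egr2 stood apart, and 0 of its 8 pairs passed, with a median r of 0.0589 (range -0.200 to 0.195).
Samples that share a number may not be independent, so r was also computed on deviations from the number means. There 39 of 45 pairs passed, the Fosb pairs included, with a median r of 0.666 (range 0.268 to 0.914). The 9 pairs of Egr2 had a median of 0.617 (range 0.358 to 0.710). Subtracting the number means leaves 18 free values per gene, but the permutation test treated the deviations as 24 separate values. Its p-values are therefore too small, and the count of 39 may be too high. A5 and C4 lay above the other samples of their numbers for Fos and for Egr1, and r on deviations was not recomputed without them. Within the 18 samples of the lower Fosb range, which exclude A5 and C4 among others, 9 of 45 pairs passed with a median r of 0.278. All 9 were among the 36 pairs without Egr2. Egr1 with Ier2 was at 0.837, while the Egr2 pairs ran from -0.266 (with Nr4a1) to 0.523 (with Fos).

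**Figure D4:**
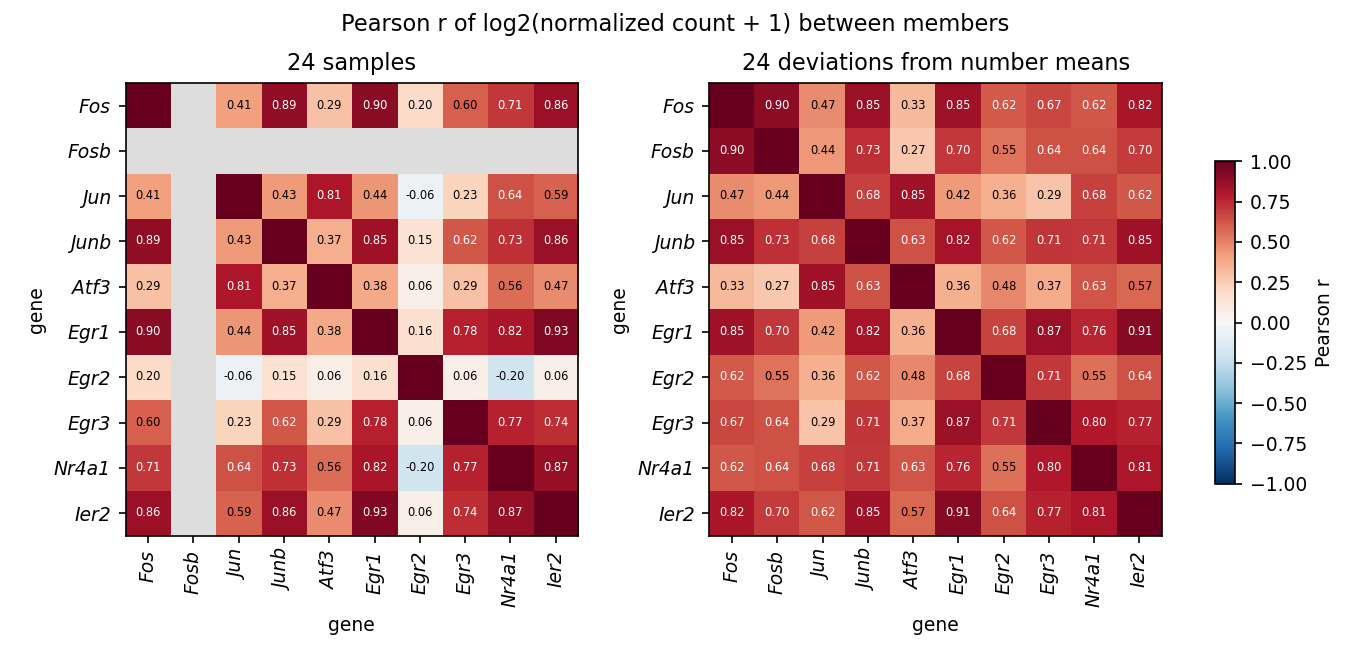
Pearson r of log2(value + 1) between each pair of the 10 genes, over the 24 samples (left, with the Fosb pairs left blank in grey) and over the 24 deviations from the number means (right). In the left panel the Egr2 pairs lie between -0.200 and 0.195, and in the right panel they lie between 0.358 and 0.710.

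Beyond the 10 genes, a list of 43 other immediate early genes was examined, of which 42 were in the table. In number 6, 9 of the 42 were called higher and 2 lower, with a median log2 fold change of 0.14, against 3.71% of all genes called higher and 3.53% lower. The 2 lower are thus close to the share over all genes. The 4 with the smallest adjusted p among those higher were Rgs2, a brake on G protein signalling (log2 fold change 0.75, limma adjusted p 0.000593), the Notch target Hes1 (0.54, 0.00241), Nr4a2, a relative of Nr4a1 (0.73, 0.00471), and the MAP kinase phosphatase Dusp5 (0.72, 0.00609). Rgs2 was at 3969 to 5109 in the 4 samples numbered 6. Those 2 were Ier5l (-0.58, limma adjusted p 0.000366), at 687.7 to 852.3 in number 6, and the small MAF protein Maff (-0.54, 0.0433).
Over the 6 numbers, 21 of the 42 passed the F test, against 30.3% of all genes. The smallest adjusted p values were those of Pim1, a survival kinase (1.36e-05), Ier5l (7.49e-05), the phosphatase Dusp2 (7.61e-05) and Rgs2 (0.000204).
Pim1 and Dusp2 were higher in number 2, with log2 fold changes of 0.88 (limma adjusted p 4.87e-06) and 1.14 (1.44e-05). In that number 8 of the 42 passed, 4 higher and 4 lower, against 20.8% of all genes in either direction. Number 3 had 0 higher and 2 lower, Plk2 (-0.71, limma adjusted p 0.0163) and Klf4 (-0.45, 0.0171), against 2.50% and 1.92% of all genes. Number 1 had 1 higher, Ccn2, and 3 lower, Pim1, Dusp2 and Rgs2 (background 5.23% higher and 5.74% lower). Number 4 had 3 higher, Gadd45b, Ier5l and Maff (background 2.41% higher and 1.79% lower). In number 5 Pim1 alone was called, with a log2 fold change of -0.47 (limma adjusted p 0.0306), where 0.903% of all genes were lower and 0.708% higher. By letter, limma called 0 of the 42 in the F test. An unadjusted limma p under 0.05 was found for 7 of the 42, a larger share than the 3.91% of all genes. The difference between these shares was not tested.

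**Figure D5:**
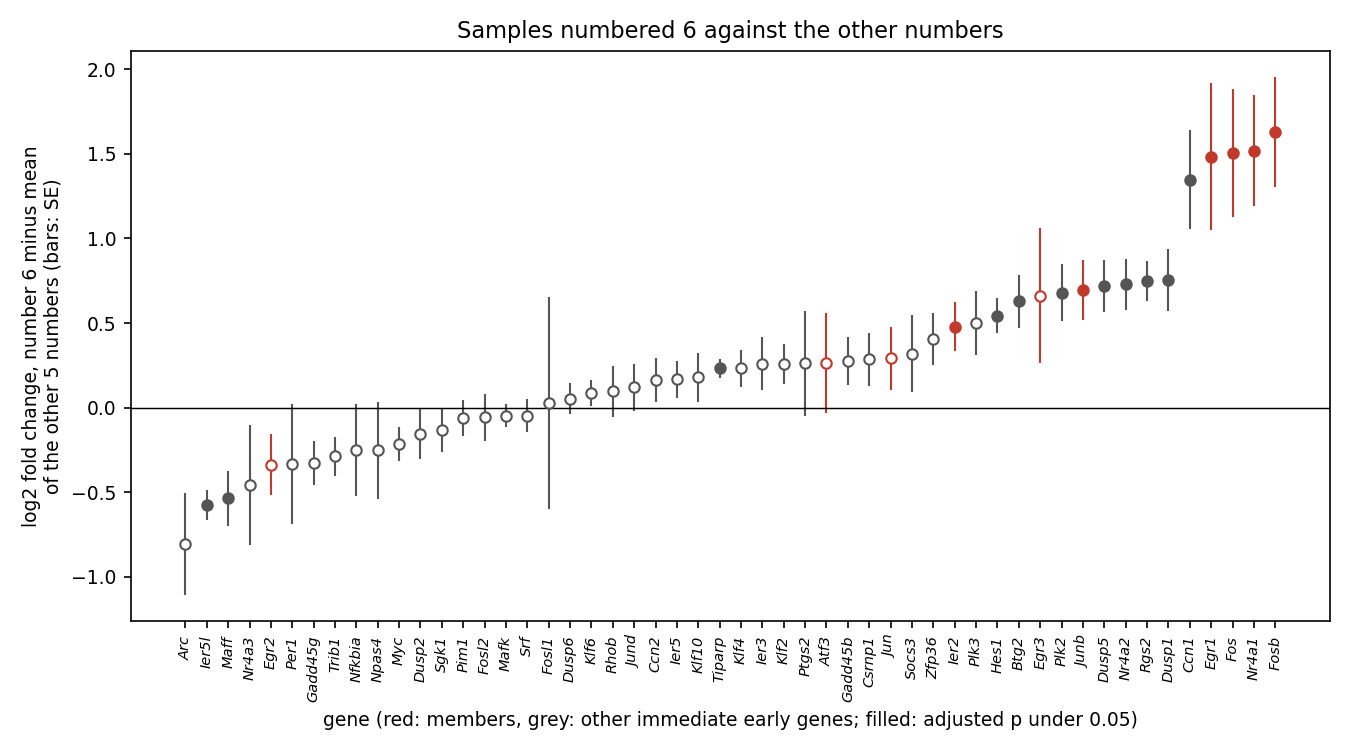
Log2 fold change of number 6 against the mean of the other 5 numbers, with its standard error, for the 10 genes (red) and the other immediate early genes (grey), where filled points have a limma adjusted p under 0.05. The 10 genes run from Egr2 at -0.34 to Fosb at 1.63.

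Of 16 genes for kinases and transcription factors that act upstream of immediate early promoters, 2 were called in number 6, both higher. Over all genes 3.71% were called higher there, and the count of 2 was not tested against that share. The 2 were Mrtfb, a coactivator of serum response factor (log2 fold change 0.26, limma adjusted p 0.00918), and the kinase gene Mapk9 (0.13, 0.0167). The median over the 16 was 0.016.

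The genes whose pattern over the 24 samples was most like that of the 10 were ranked by Pearson r with the mean of their centred log2 values, among 15904 other genes with a mean of at least 100. The first was Btg2, an antiproliferative gene (r 0.926), then Hlx (0.887), the matricellular gene Ccn1 (0.871), Nr4a2 (0.867) and Plk2 (0.837). Dusp5 (0.834), Ppp1r15a (0.832), Spry4 (0.825), Ier3 (0.815) and Zfp36l1 (0.789) completed the first 10. Of these, 6 were on the list of other immediate early genes. Btg2 had a median of 27636 in number 6 and of 14265 to 20532 in the other numbers.
Of the 39 listed immediate early genes with a mean of at least 100, 18 (46.2%) had an r over 0.5 with that mean, where 2.06% of the 15904 genes did. The listed genes at the other end were Per1 (-0.369), Sgk1 (-0.362) and Maff (-0.331).
Taken gene by gene, the closest gene outside the 10 was Btg2 for Fos (0.875), Fosb (0.834), Egr1 (0.888) and Ier2 (0.913). It was Ier3 for Junb (0.876), Hlx for Nr4a1 (0.920), Rab43 for Egr3 (0.786), Rhob for Jun (0.876), Jund for Atf3 (0.834) and Myc for Egr2 (0.835).

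Other gene lists also differed in the samples numbered 6, and their part in the result was not tested. The counts that follow stand against 3.71% of all genes called higher and 3.53% called lower in number 6. Of 11 heat shock genes 7 were lower and 0 higher, with a summed level of 70971 to 89195 in number 6 and 93444 to 179730 in the other samples. A5 (98928) and C4 (138281), which shared the high Fos values, lay in that second range. The sum is weighted towards genes with large values. By the mean of centred log2 values, which weights each gene alike, A6 and B6 ranked 24 and 23 from the highest of 24 samples. G6 ranked 17 and C6 ranked 10, among the other samples.
All 4 B cell markers were higher in number 6 (summed level 3352 to 4001, against 1637 to 3452), and A5 (2225) and C4 (2066) did not share this. Of 5 T and NK cell markers 3 were higher (4789 to 8036, against 3181 to 11962). Of 4 fibroblast markers 2 were lower, Col1a1 and Col1a2, and the summed level of all 4 was 68784 to 90132, against 83530 to 219466. Col1a1 means were 87335 and 78314 in numbers 1 and 2, 28236 to 33583 in numbers 3 to 5, and 22853 in number 6. Of 5 smooth muscle markers 3 were lower (summed level 14656 to 20078, against 14695 to 36855). In A5 and C4 the fibroblast level was 85175 and 91345, and the smooth muscle level 16872 and 17121. The T and NK cell level was 3788 in A5 and 3840 in C4, below number 6.
Of 5 red blood cell genes 0 passed with limma, and their summed level was 311888 to 779293 in number 6 and 125654 to 1073874 in the others, with 747212 in A5 and 766151 in C4. It was also high in A4 (1073874), B4 (859458) and C5 (709895), and C5 had the lowest Fos value of all samples (737.4). Skeletal muscle genes stood far above the rest in A4 and B4. When those 2 samples were left out, Fos, Fosb, Junb and Nr4a1 were still called higher in number 6, whereas the adjusted p became 0.0599 for Egr1 and 0.0772 for Ier2.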

How the data were processed

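Lung mRNA of 24 rat samples was analysed. The deposited table holds 1 normalized count per gene and sample (a signal without a stated method in the sources used here). The submitters' processing notes name STAR and the mouse build GRCm38, with no version or counting step. Raw reads per gene could not be recovered from the deposited signal, so DESeq2 and edgeR were not run.

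Values were taken as log2(value + 1) for all 30667 genes, each with a mean of at least 0.5, and fitted with limma 3.58.1 (trend, R 4.3.3). One fit had a mean per letter (20 residual degrees of freedom), the other a mean per number (18). P-values were adjusted by Benjamini-Hochberg over all genes in each contrast, with a threshold of 0.05, and log2 fold changes are differences of log2(value + 1), so those of genes with low values are understated. The fits were tested on simulated data. Correlations used two-sided permutation tests with 100000 resamples (scipy 1.17.1), so 1e-05 is the smallest unadjusted p they can give.

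The numbers were checked as pairs over the 21922 genes whose mean reached 10. Same-numbered samples deviated together in every pair for A with B (r at least 0.169) and B with C (at least 0.127), while the lowest r was 0.0725 for A with C, -0.0452 for A with G, 0.0912 for B with G and 0.0287 for C with G.

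Alternatives were a pseudocount of 0.1, filters at a mean of 10 or at 0.5 in every sample, quantile normalization, 75th percentile scaling, sample quality weights, robust moderation, the number or letter as a block, fits of 12 samples for a letter pair, and leaving out each sample. A fit without A4 and B4 was chosen after seeing the data. All 10 genes, the up to 4 listed genes per direction with the smallest adjusted p, the first 10 by likeness and the closest gene to each of the 10 are named by rule. Ccn1, Dusp5 and others are named under more than 1 of these. Egr4 was not found in the table. The genes and lists were chosen with earlier results of these data known. Promoter windows came from RefSeq (GRCr8), to which all 10 symbols matched.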

Additional observations from a re-analysis of the deposited data

Results flagged for a closer look

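Outlying single samples were sought in 100 groups, the 10 genes within each letter and each number on the log2 scale, by Dixon's 95% criterion. In 10 groups a sample lay further out than that limit, where chance gives about 1 in 20 groups, or 5 of 100. In 8 the sample was high and in 2 it was low. The groups are not independent, since each value enters a letter group and a number group and many of the genes are correlated.

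Within letter G, the sample numbered 6 stood out for 4 genes. Fos was at 5070 in G6 and at 1104 to 1808 in the other G samples, Fosb at 1732 against 391.4 to 573, Egr1 at 6909 against 1727 to 2890, and Egr3 at 346.2 against 131.1 to 170.1. Within letter B, Fosb was at 1936 in B6 and at 494.5 to 768.5 in the others. Fos, Fosb and Egr1 were also called higher in number 6 as a whole, and Egr3 was not (limma adjusted p 0.371). G6 and B6 are themselves samples of number 6, so those calls rest in part on the same values.

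C4 stood out within number 4 for Egr2, at 739.7 against 361.2 to 398.7, and for Egr3, at 985.7 against 152.3 to 204.6. In the same number Jun was low in A4, at 20237 against 35680 to 37066. Atf3 was low in G2, at 1034 against 2356 to 2735 in the other samples numbered 2. Fos was at 1654 in B1 and at 1355 to 1390 in the other samples numbered 1, a gap that is large only beside the narrow range of the other 3 samples.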

How the results depend on the processing

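With the number as replicate block, 0 of the 10 genes were called over the letters and 0 in the letter pairs, although all genes called in G against A rose from 2 to 391. Egr3 then had a limma adjusted p of 0.163 there, and Egr1 0.248. Sample quality weights called 4 genes in number 3, 1 in number 4 and 1 in number 5, where the reported counts were 2, 0 and 0. Robust moderation called 1 in number 3, and so did the fit without A4 and B4, chosen after seeing the data. The cause was not tested. Robust moderation also lost Fos (0.0663) and Ier2 (0.082) over the numbers, and Egr1 (0.0753) and Ier2 (0.076) in number 6. Weights also changed the count over all 30667 genes, from 3365 to 5464 in number 1, 6373 to 3992 in number 2, 1356 to 2242 in number 3, 1289 to 1706 in number 4, 494 to 1819 in number 5 and 2222 to 3987 in number 6. With 1 sample left out at a time, 0 to 0 genes were called over the letters and 0 to 0 in the letter pairs. The count was 4 to 8 over the numbers, 0 to 2 in number 1 and 0 to 0 in number 2. It was 0 to 3 in number 3, 0 to 1 in number 4 and 0 to 1 in number 5. In number 6 it was 2 to 6. Of the 45 pairs, those with Fosb included, 24 to 32 were correlated, against 27 with all samples. Among the 36 pairs without Fosb, 20 passed with all samples. No result for the 10 genes changed direction under these alternatives while called. Without read counts, no counting interval could be given.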
